A study of Mus musculus with 12 samples.

Results

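The genes described here encode the subunits of oxidative phosphorylation that are read from the nuclear genome. They were taken from the count table by symbol: Nduf genes of the a, b, c, s and v series with a number, symbols beginning with Uqcr, Cox4 to Cox8 or Atp5, and Sdha, Sdhb, Sdhc, Sdhd and Cyc1. This rule found 86 of the 25919 rows, and no expression value entered it. Of the 86, 78 are subunits and 5 are pseudogenes. Another 2 (Atp5s and Atp5sl) are related by name but are not subunits. The last 1 (Cox7a2l) is known as a factor that can join respiratory complexes. The low-count filter passed 73 of the 86, 68 of these subunits, and the other 13 were not tested.

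Polyadenylated RNA of mouse liver origin (strain C57BL/6, age 7 weeks) was sequenced in bulk from the 3′ end. The 4 libraries labelled CD40 at day 2 were compared with the 2 libraries labelled Kupffer cells at day 0. The label and the day differ together, so what belongs to the cells and what belongs to the time cannot be told apart. The labels give no treatment, no event from which the days are counted, no sorting scheme and no animal per library, so the p-values speak only of library-to-library spread, some of which may be technical. The remaining 6 columns of the table were not analysed here, because their values seem to be ordered apart from the gene names. The letters a to d only name the libraries within a group.

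Column totals were 1182437, 725683, 2271228 and 1775691 counts for CD40 day 2 and 1612435 and 688498 counts for Kupffer day 0. The labels were checked against marker lists. Monocyte genes took 1.63 to 2.22% of counts in CD40 day 2 and 0.151 to 0.176% in Kupffer day 0, with 9 of 10 higher. Kupffer cell genes took 0.0192 to 0.0371% in CD40 day 2 and 0.423 to 0.499% in Kupffer day 0, with 8 of 11 lower and 1 higher. Genes of liver sinusoidal endothelial cells were all 12 lower, at 0.0672 to 0.108% in CD40 day 2 and 1.96 to 2.1% in Kupffer day 0, so the Kupffer libraries carried more endothelial than Kupffer marker counts. Stellate cell genes (0.00331 to 0.0118% in CD40 day 2, 0.148 to 0.182% in Kupffer day 0) were lower in 8 of 8 tested. Hepatocyte genes (0.0166 to 0.0262% in CD40 day 2, 0.0369 to 0.1% in Kupffer day 0) were lower in 5 of 7 and higher in 1. Malat1 and Neat1, nuclear transcripts used here as a sign of RNA quality, took 1.34 to 2.21% in CD40 day 2 and 2.62 to 4.06% in Kupffer day 0, and both were lower, 1 of them not so without library c of CD40 day 2 or b of Kupffer day 0. None of the tested neutrophil, T and NK cell, B cell or erythroid genes (7, 2, 1 and 4) was called by edgeR's quasi-likelihood test. At an unadjusted p under 0.05, 1 neutrophil gene was lower, DESeq2 called 1 T and NK cell gene higher, and 3 neutrophil genes were lower without library a of Kupffer day 0. With no filter on low counts 3 neutrophil genes were lower, 4 of 5 erythroid genes higher and 1 T and NK cell gene higher, and with column totals as the scaling 2 neutrophil genes were lower. No marker list had a gene at 0 in all 6 libraries. Most monocyte, Kupffer, endothelial, stellate cell and hepatocyte markers thus differed between the libraries compared below, as did Malat1 and Neat1. Their part in the results below was not tested. In bulk samples, fewer cells of a type and less RNA per cell cannot be told apart.

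Oxidative phosphorylation makes most of the ATP of resting cells in the inner mitochondrial membrane. Complexes I and II take electrons from NADH and succinate, complex III passes them to cytochrome c, complex IV passes them to oxygen, and complexes I, III and IV pump protons that drive the ATP synthase, complex V. Macrophages are known to shift between glycolysis and respiration when they are activated, and succinate dehydrogenase, complex II, belongs to the citric acid cycle as well as to the chain. Most subunits are nuclear genes whose proteins are imported, while a small core of complexes I, III, IV and V is encoded by mitochondrial DNA. Many of the nuclear promoters are known to bind NRF1, ETS factors such as GABPA, YY1 and SP factors.

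Promoters were read because the members moved together. RefSeq windows (GRCm38.p6) of 300 bases, from 250 before to 50 after the gene start, were matched to 67 of the 86 members, 60 of them tested. The 3 windows below, shortened to 150 bases before and 30 after the start, show one example of each of 3 motifs, written 5′ to 3′ on the gene's strand with the motif in capitals. Sdhb (chr4:140961121-140961300, plus strand) and Sdhd (chr9:50603820-50603999, minus strand) had the largest fold changes of complex II, and Ndufc1 (chr3:51408926-51409105, minus strand) is an accessory subunit of complex I that was also called higher.
Sdhb: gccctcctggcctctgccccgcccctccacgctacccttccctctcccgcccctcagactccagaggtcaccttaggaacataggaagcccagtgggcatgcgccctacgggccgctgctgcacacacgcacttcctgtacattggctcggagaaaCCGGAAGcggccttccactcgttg
Sdhd: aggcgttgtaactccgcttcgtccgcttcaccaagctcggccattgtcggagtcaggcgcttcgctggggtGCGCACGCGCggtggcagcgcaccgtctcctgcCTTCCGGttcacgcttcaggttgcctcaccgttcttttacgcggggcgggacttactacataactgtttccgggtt
Ndufc1: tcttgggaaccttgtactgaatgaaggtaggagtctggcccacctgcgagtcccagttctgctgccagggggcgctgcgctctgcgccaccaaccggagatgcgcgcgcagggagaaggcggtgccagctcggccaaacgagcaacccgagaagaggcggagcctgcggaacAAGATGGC
In Sdhb the capitals mark the ETS motif CCGGAAG at positions 7 to 13, counted from 1 at the gene start. In Sdhd they mark an NRF1 motif at -79 to -70 and the ETS motif on the other strand at -46 to -40. In Ndufc1 they mark the YY1 motif AAGATGGC at 23 to 30. Both strands were searched in the full windows. The NRF1 motif was searched with any base at its 1 variable position. It stood in 25% of the 60 tested members with a window, 12.4% of the 7040 tested genes with a window and 5.19% of all 27025 genes with a window. Its exact palindrome, a subset of these, stood in 5%, 2.5% and 1.07%. The YY1 motif stood in 18.3%, 5.74% and 3.19%. It was found in 7 of 30 complex I and 4 of 14 complex V members with a window but in none of the 16 of complexes II, III and IV. The ETS motif was about as frequent in members (23.3%) as in tested genes (22%, against 9.93% of all genes with a window). The SP motif GGGCGG was less frequent in members (40%) than in tested genes (70.1%, against 38.2% of all genes with a window). Of the 42 members called higher that had a window, 19% held the NRF1 motif and 7.14% its exact palindrome. The 42 are part of the 60 tested members with a window, where these shares were 25% (15 genes) and 5% (3 genes). The YY1, ETS and SP motifs stood in 21.4%, 26.2% and 40.5% of these 42. These are descriptions of letters and were not tested; a match does not show binding.

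Expression of the family was higher in CD40 day 2 across all 5 complexes, and no tested member was called lower. Of the 73 tested members, 52 rose, 0 fell and 21 did not pass the threshold (edgeR's quasi-likelihood test, Benjamini-Hochberg adjusted p under 0.05 over 9852 genes). Of the 68 tested subunits alone, 51 were higher. Over all genes tested, 23.2% were called higher, 30.2% lower and 53.4% in either direction. The share called higher was larger among short genes. In genes other than members it was 52% for coding lengths up to 300 nt and 37.9% for lengths over 300 and up to 600 nt. At an unadjusted p under 0.05, 0 members were lower, and 0 were lower in each of the 12 other settings run (other scalings and filters, DESeq2, or 1 library left out). In 61 of 73 members every CD40 library lay above both Kupffer libraries and in 0 every CD40 library lay below them, while over all genes these shares were 29.7% and 36.9%. The median log2 fold change of the members was 0.75, a fold of 1.68, with a range from -0.27 to 1.76, and the median of all genes tested was -0.10. Without library a of Kupffer day 0, 37 members were called higher, and without library b 42 were.

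**Figure D1:**
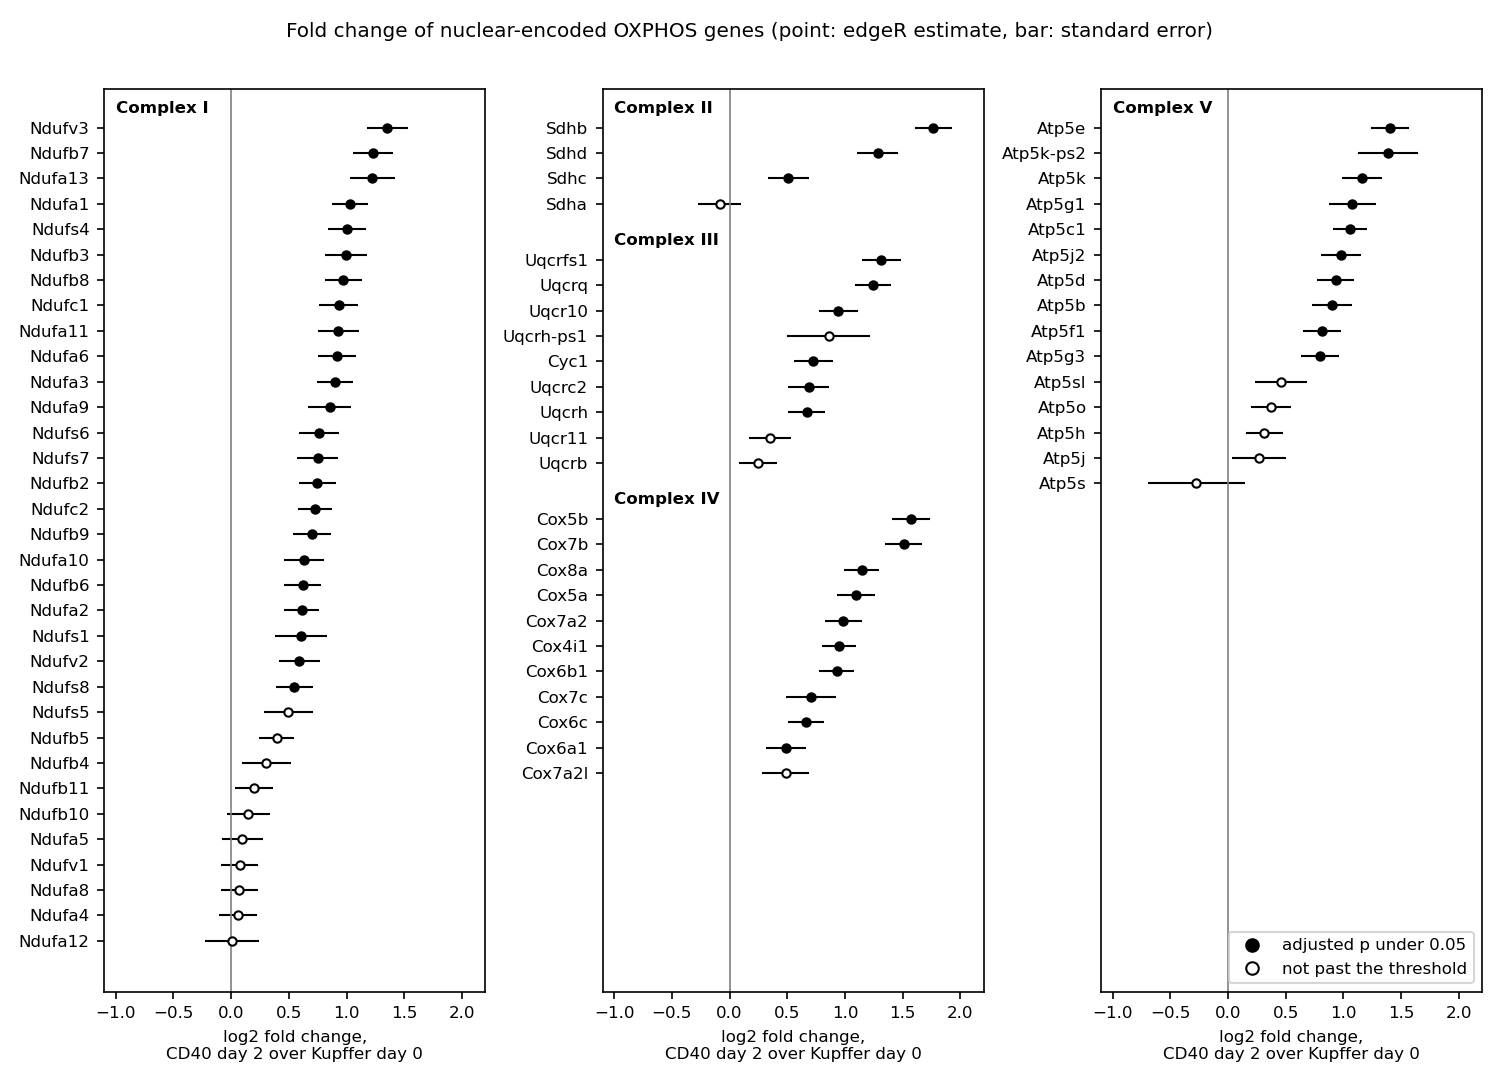
Log2 fold change of tested members, CD40 day 2 over Kupffer day 0, by complex; points are edgeR estimates, bars are standard errors, and filled points have an adjusted p under 0.05. The 52 filled points all lie right of 0, and Sdhb at 1.76 lies farthest.

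Summed over the members of each complex, the share of counts was higher in every CD40 library than in either Kupffer library. All members together held 4.11, 4.06, 3.86 and 3.59% of counts in CD40 day 2, against 2.52 and 2.42% in Kupffer day 0, a ratio of means of 1.58 ± 0.0953 (SD over CD40 libraries, n = 4, over the Kupffer mean). The ratio was 1.45 for complex I, 1.96 for complex II, 1.56 for complex III, 1.72 for complex IV and 1.66 for complex V. Complex II, the smallest set, held 0.108 ± 0.00301% in CD40 day 2 (SD, n = 4) and 0.0549 ± 0.000604% in Kupffer day 0 (SD, n = 2). The 2 Kupffer libraries lay close together in each complex, at 1.04 and 1.03% for complex I and 0.644 and 0.598% for complex IV. For single values such as these an exact permutation test of 4 against 2 libraries has 15 splits and cannot go below p = 0.0667.

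**Figure D2:**
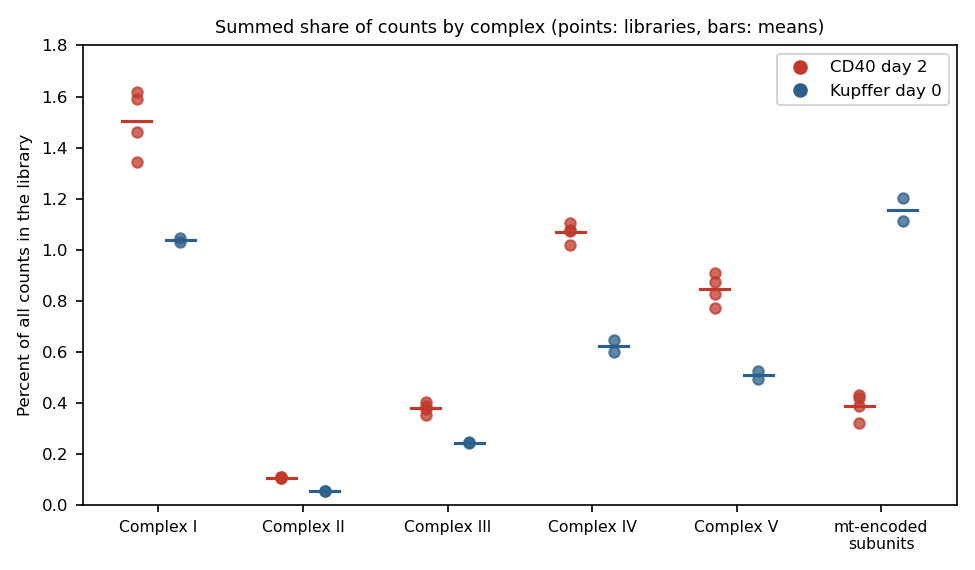
Percent of all counts in each library taken by the members of complexes I to V and by the mitochondrially encoded subunits; points are libraries and bars are means, CD40 day 2 left of Kupffer day 0. The nuclear complexes are higher in every CD40 library, and the mitochondrially encoded subunits are lower, at 0.321 to 0.43% against 1.11 to 1.2%.

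Complex I, the NADH dehydrogenase, had 23 of 34 tested members higher (median log2 fold change 0.67). Without library a of Kupffer day 0 its count was 13. Its accessory subunits, which surround the catalytic core, stabilise it and help to assemble it, were higher in 19 of 27 (median 0.75) and held the largest changes. Ndufv3, an accessory subunit of the NADH-binding module, had 657, 495, 516 and 521 CPM (counts per 1000000 of the TMM-adjusted library total) in CD40 day 2, against 219 and 209 CPM in Kupffer day 0. All 4 CD40 libraries lay far above both Kupffer libraries, with library a apart from the other three, and the log2 fold change was 1.35 ± 0.18 (SE, adjusted p = 0.00017). The gene lies on chromosome 17, 31520115 to 31531331, plus strand, and no annotated gene overlaps it (GENCODE M21, GRCm38). Ndufb7, a small subunit on the intermembrane side, had 731, 676, 628 and 549 CPM in CD40 day 2, against 278 and 273 CPM in Kupffer day 0 (1.23 ± 0.17, adjusted p = 0.00026).

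Ndufa13, also known as GRIM-19 from its part in cell death signalling, had 1641, 1466, 1228 and 1163 CPM in CD40 day 2, against 565.5 and 611 CPM in Kupffer day 0 (1.224 ± 0.19, adjusted p = 0.00047). Ndufa1, a short membrane subunit needed for assembly, had 730.0, 663, 653 and 646 CPM in CD40 day 2, against 317 and 343 CPM in Kupffer day 0 (1.03 ± 0.15, adjusted p = 0.00037). Neither gene's groups came near each other. Ndufa13 overlaps Yjefn3 on the same strand and Tssk6 on the other strand. In each of these 4 genes library a of CD40 day 2 was the highest.

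The catalytic core of complex I, which carries the flavin and the iron-sulfur clusters, was called higher in 4 of 6 tested subunits (Ndufs1, Ndufs7, Ndufs8 and Ndufv2, median over the 6 of 0.57). These calls rested on single libraries and settings: 0 of them remained past the threshold without library a of Kupffer day 0, and 1 did without library b, with column totals as the scaling or with a stricter count filter. Ndufs7 had 459, 414, 359 and 341 CPM in CD40 day 2, against 231 and 235 CPM in Kupffer day 0 (0.75 ± 0.18, adjusted p = 0.0054). Ndufv1, the subunit that binds NADH and the flavin, had 126, 134, 146 and 133 CPM in CD40 day 2, against 123 and 134 CPM in Kupffer day 0. The Ndufv1 groups overlapped, with a log2 fold change of 0.07 ± 0.16 (SE). Ndufs3, another core subunit, was not tested, with 1 count over the 6 libraries.

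The complex I members that did not pass were spread between log2 fold changes of 0.50 and 0.01. Nearest to the threshold among them was Ndufb5 (0.39, adjusted p = 0.053), and just inside it was Ndufs1 (0.61, adjusted p = 0.046), both by edgeR's quasi-likelihood test. Others were Ndufs5 (0.50), Ndufb4 (0.30), Ndufb11 (0.19), Ndufb10 (0.15), Ndufa5 (0.10), Ndufa8 (0.07), Ndufa4 (0.06) and Ndufa12 (0.01). With column totals as the scaling, Ndufb10, Ndufa5, Ndufv1, Ndufa8, Ndufa4 and Ndufa12 fell just under 0, so no direction can be given for them. Ndufa4, now placed in complex IV, had 1210, 1064, 1007 and 905 CPM in CD40 day 2, against 1023 and 979 CPM in Kupffer day 0, and its groups overlapped. Ndufs5 and Ndufa12 share 43.5% and 61.6% of the 50-base words in their last 500 transcript bases with another annotated gene, so their counts are uncertain. Ndufb5 and Ndufb11 overlap a gene on the other strand (Mrpl47 and Rbm10).

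Complex II, succinate dehydrogenase, split by subunit. Sdhb, the iron-sulfur subunit, had the largest fold change of all 73 tested members, while Sdha, the flavin-bearing catalytic subunit that binds it, did not differ beyond its spread. Sdhb had 612, 599.8, 595 and 555 CPM in CD40 day 2, against 174 and 173 CPM in Kupffer day 0. The libraries of each group lay tightly together and the groups lay far apart, with a log2 fold change of 1.76 ± 0.16 (SE, adjusted p = 1.4e-05), a fold of 3.40. It kept its call in all 13 settings, between 1.60 and 1.84. Sdhb lies on chromosome 4, 140961203 to 140979193, plus strand, with no overlapping gene and no shared 3′ word.

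Sdhd, a membrane anchor, had 294, 243, 264 and 293 CPM in CD40 day 2, against 102 and 125 CPM in Kupffer day 0 (1.28 ± 0.18, adjusted p = 0.00025). Sdhc, the other anchor, had 149, 133, 167 and 139 CPM in CD40 day 2, against 98.8 and 110.0 CPM in Kupffer day 0 (0.51 ± 0.18, adjusted p = 0.034). Its groups did not overlap, but the gap was small and its call held in 5 of the 13 settings. Sdha had 109, 100.4, 129 and 135 CPM in CD40 day 2, against 137 and 114 CPM in Kupffer day 0 (-0.08 ± 0.19, adjusted p = 0.73).

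The Sdha groups overlapped, the gene overlaps Gm16125 on the other strand, and the sign of its difference turned without library b of CD40 day 2 (0.05) or without library a of Kupffer day 0 (0.06). Taken within each library, so that scaling plays no part, Sdhb had 5.60, 5.97, 4.62 and 4.10 counts per count of Sdha in CD40 day 2, against 1.27 and 1.51 in Kupffer day 0. The ratio of Sdhd to Sdha was 2.69, 2.42, 2.05 and 2.17 in CD40 day 2, against 0.741 and 1.10 in Kupffer day 0. The ratio of Sdhc to Sdha was 1.37, 1.32, 1.30 and 1.03 in CD40 day 2, against 0.720 and 0.963 in Kupffer day 0. All 3 ratios were higher in every CD40 library, widely so for Sdhb and narrowly for Sdhc. These are ratios of 3′ counts, which show unequal change and not the make-up of the complex.

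**Figure D3:**
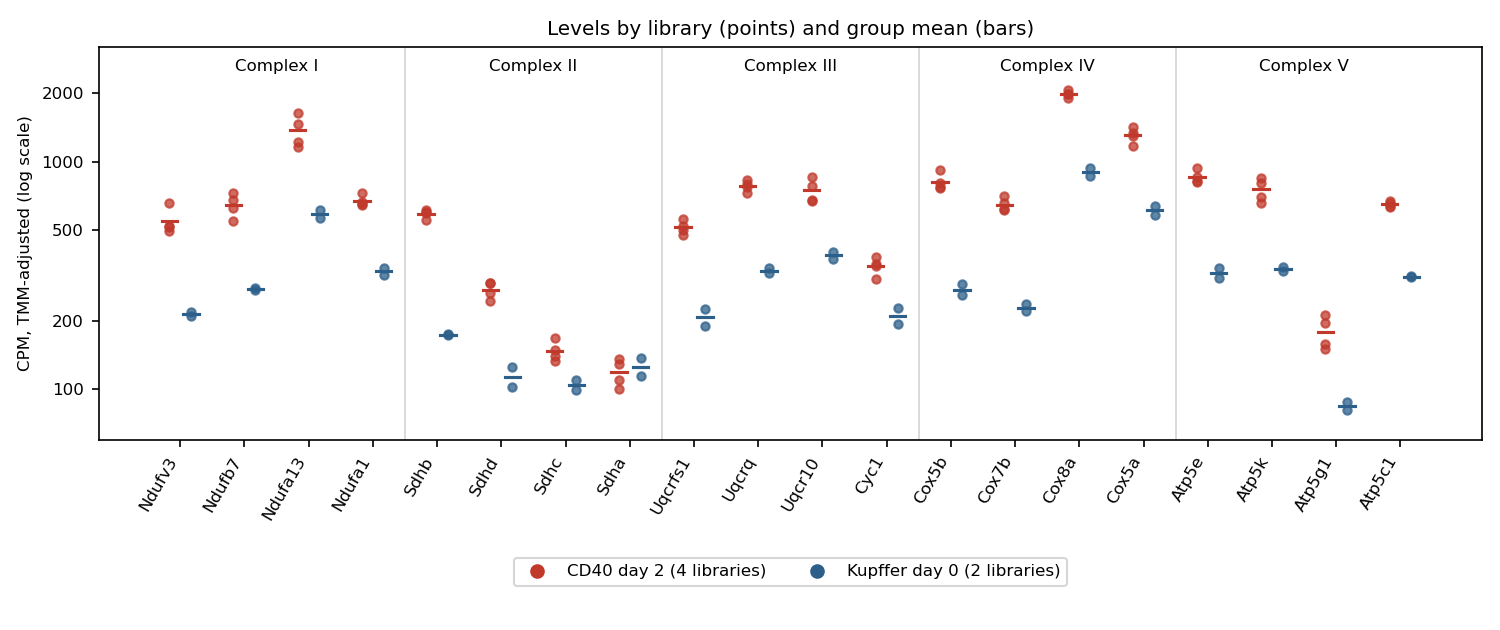
CPM, scaled to TMM-adjusted library totals and on a log axis, of 4 members of each complex (for complex II, all of them); points are the 4 CD40 day 2 and 2 Kupffer day 0 libraries and bars are group means. Sdha is the only gene shown whose groups overlap.

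Complex III, the cytochrome bc1 complex, had 6 of 9 tested members higher (median 0.72), and 3 without library a of Kupffer day 0. Its redox and core subunits were higher in 3 of 3 tested, and in 1 without that library. Uqcrfs1, the Rieske iron-sulfur protein, had 560, 499, 524 and 478 CPM in CD40 day 2, against 190.0 and 226 CPM in Kupffer day 0 (1.32 ± 0.17, adjusted p = 0.00013). It had the largest fold change of complex III, with the groups far apart. Cyc1, cytochrome c1, had 354, 382, 348 and 305 CPM in CD40 day 2, against 193 and 228 CPM in Kupffer day 0 (0.72 ± 0.17, adjusted p = 0.0051), and it lost its call without library a of Kupffer day 0. Uqcrc2, a core protein, was called at 0.68, though not without either Kupffer library. Its partner Uqcrc1 had 0 counts in all 6 libraries and was not tested. Whether reads of Uqcrc1 were lost in counting was not tested, so its 0 cannot be read as absence of the transcript.

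Of the small subunits of complex III, 3 of 5 were higher. Uqcrq, which borders the ubiquinone site, had 836, 802, 731 and 772 CPM in CD40 day 2, against 341 and 323 CPM in Kupffer day 0 (1.24 ± 0.16, adjusted p = 0.00012). Uqcr10 had 857, 781, 679 and 674 CPM in CD40 day 2, against 402 and 375 CPM in Kupffer day 0 (0.94 ± 0.17, adjusted p = 0.0012). Both sets of libraries were separate. Uqcr11 (0.35), Uqcrb (0.24) and the pseudogene Uqcrh-ps1 (0.86) did not pass. Uqcrb shares 46.6% of its 3′ words with 4 other genes.

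Complex IV, cytochrome c oxidase, had 10 of 11 tested members higher (median 0.95), with members assigned by symbol. In all 11 the CD40 libraries lay above the Kupffer libraries. Ndufa4, now placed in complex IV, was counted with complex I by its symbol. It did not pass (0.06), and its groups overlapped. Cox5b, a nuclear subunit on the matrix side that binds zinc, had 921, 805, 769 and 771 CPM in CD40 day 2, against 289 and 259 CPM in Kupffer day 0 (1.57 ± 0.17, adjusted p = 4.3e-05). Cox7b, a membrane subunit needed for assembly, had 706, 659, 612 and 617 CPM in CD40 day 2, against 220 and 237 CPM in Kupffer day 0 (1.51 ± 0.16, adjusted p = 4.3e-05). Both were close to 3-fold higher, at folds of 2.97 and 2.84, with little spread within a group. Cox5b shares 17.5% of its 3′ words with another gene, and Cox7b shares none.

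Cox5a, the matrix subunit next to Cox5b, had 1420, 1335, 1296 and 1171 CPM in CD40 day 2, against 585 and 638 CPM in Kupffer day 0 (1.09 ± 0.16, adjusted p = 0.00032). Cox8a, the ubiquitous form of subunit 8, had 1994, 1901, 2078 and 1981 CPM in CD40 day 2, against 939 and 862 CPM in Kupffer day 0 (1.14 ± 0.15, adjusted p = 0.00018). Cox7a2 (0.99), Cox4i1 (0.95), Cox6b1 (0.93), Cox7c (0.70), Cox6c (0.66) and Cox6a1 (0.49) made up the rest of the calls. Cox6a1 stood nearest to the threshold (adjusted p = 0.037, edgeR's quasi-likelihood test) and passed in 7 of the 13 settings, Cox7c, which shares 57.6% of its 3′ words with other genes, in 9, and Cox6c in 12.

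The forms of complex IV subunits typical of muscle, lung or testis were almost absent from both groups. Summed over libraries, Cox4i2 had 9 counts in CD40 day 2 and 0 in Kupffer day 0, and Cox6a2 had 10 in CD40 day 2 and 4 in Kupffer day 0. Cox6b2 had 13 counts in CD40 day 2 and 3 in Kupffer day 0, Cox7a1 had 46 in CD40 day 2 and 5 in Kupffer day 0, and Cox8b had 0 in CD40 day 2 and 1 in Kupffer day 0. Their common forms Cox4i1, Cox6a1, Cox6b1 and Cox8a held at least 99.58% of the counts of each pair in every library, and none of the rarer forms passed the low-count filter. With no filter on low counts, Cox7a1 was called higher, and its CD40 libraries all lay above its Kupffer libraries.

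Cox7a2l resembles Cox7a2 and is known as a factor that can link complexes III and IV into supercomplexes. Whether it does so in this strain was not tested. It was the 1 tested gene of this set that did not pass (0.49 ± 0.20, adjusted p = 0.068, edgeR's quasi-likelihood test). It had 319, 366, 443 and 481 CPM in CD40 day 2, against 315 and 259 CPM in Kupffer day 0, so the groups nearly met at library a of CD40 day 2. Its share of the Cox7a1, Cox7a2 and Cox7a2l counts was 25.3, 31.9, 34.7 and 37.9% in CD40 day 2, against 42.4 and 38.6% in Kupffer day 0. All 4 CD40 libraries lay below both Kupffer libraries, the nearest pair less than 1 percentage point apart.

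Complex V, the ATP synthase, had 10 of 15 tested members higher (median 0.90). These 15 include the pseudogene Atp5k-ps2, which is 1 of the 10, and Atp5s and Atp5sl, which are not subunits. The F1 head, where ATP is made, was higher in 4 of 4 tested subunits (median 0.995). Atp5e, the epsilon subunit of its central stalk, had 941, 859, 819 and 814 CPM in CD40 day 2, against 308 and 343 CPM in Kupffer day 0 (1.40 ± 0.16, adjusted p = 7.0e-05). Atp5c1, the gamma subunit that turns inside the head, had 631, 675, 640.5 and 656 CPM in CD40 day 2, against 311 and 313 CPM in Kupffer day 0 (1.06 ± 0.15, adjusted p = 0.00025). The libraries of Atp5c1 agreed closely within each group. The delta subunit Atp5d (0.93) and the catalytic beta subunit Atp5b (0.90) were also called. Atp5a1, the alpha subunit, was not tested, with 1 count over the 6 libraries. Whether reads of Atp5a1 were lost in counting was not tested, so its low count cannot be read as absence of the transcript.

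In the peripheral stalk and the membrane part, 5 of 8 tested subunits were higher (median 0.80). Atp5k, subunit e at the dimer interface, had 853, 811, 703 and 657 CPM in CD40 day 2, against 345 and 330.1 CPM in Kupffer day 0 (1.16 ± 0.17, adjusted p = 0.00036). Atp5g1, a source of the c-ring of the proton channel, had 195, 211, 158 and 150.1 CPM in CD40 day 2, against 81.0 and 87.7 CPM in Kupffer day 0 (1.08 ± 0.20, adjusted p = 0.0015). Atp5g3, which encodes the same mature c subunit, was also higher (0.79). The share of Atp5g1 in the summed Atp5g1, Atp5g2 and Atp5g3 counts was 20.6, 23.5, 15.7 and 15.7% in CD40 day 2, against 14.5 and 17.5% in Kupffer day 0. These shares overlapped, and no shift between the forms can be read from them. Atp5g2 had 25 counts over the 6 libraries and shares 99.1% of its 3′ words with other genes, so its low count is uncertain.

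Subunits of complex V that did not pass were Atp5o (0.37), Atp5h (0.31) and Atp5j (0.27), with Atp5sl (0.46) and Atp5s (-0.27) among the genes that are not subunits. Atp5h shares 60.3% of its 3′ words with 3 other genes, and Atp5j overlaps Gabpa on the other strand. The annotated entry read for Atp5o spans chromosome 16, 91684398 to 91926982. It overlaps several genes on both strands, another entry named Atp5o among them, so these overlaps may not hold for the other entry. The pseudogene Atp5k-ps2 was called higher, with 49.15, 56.6, 49.6 and 46.5 CPM in CD40 day 2, against 15.5 and 25.1 CPM in Kupffer day 0 (1.38 ± 0.26, adjusted p = 0.0015). It shares 1.24% of its 3′ words with 1 other gene. Of the other untested symbols, Atp5l had 35 counts over the 6 libraries, and Atp5l-ps1, Atp5l-ps2 and Atp5l2-ps had 7, 11 and 9. Atp5l shares 75.2% of its 3′ words with 13 genes, so reads from it may not have been counted to it.

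**Figure D4:**
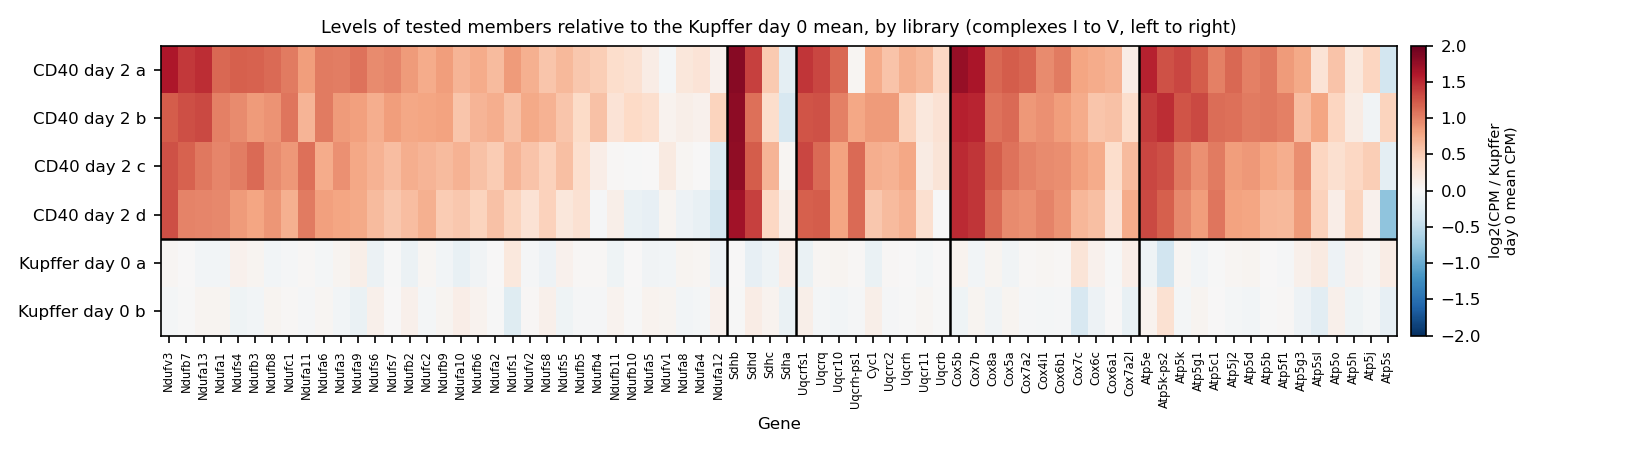
Level of tested members in each library, as log2 of CPM over the mean of the 2 Kupffer day 0 libraries; genes run from complex I on the left to complex V on the right, by falling fold change within a complex, and libraries run down the page. Most members are above 0 in all 4 CD40 libraries, and Atp5s is below it in 3 of the 4.

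Within CD40 day 2 the size of the difference varied by library. The median member lay 0.84, 0.79, 0.74 and 0.67 above the Kupffer mean in libraries a, b, c and d on the log2 scale. Libraries a and b both lay above c and d in 41 of 73 members and below them in 7, while over all genes tested these shares were 22.6% and 24.2%; this pairing of libraries was chosen after the values were seen. The median coefficient of variation of a member over the CD40 libraries was 10.2%, and that of genes over 100 CPM was 14.1%. Members lie on 19 chromosomes, with at most 6 tested members on 1 of them. Of the tested members 31 overlap another annotated gene and 29 share a 3′ word with another gene, 5 of them more than 40%. Among the 28 tested members with neither, 20 were higher and the median was 0.93.

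Subunits encoded by mitochondrial DNA went the other way in the same libraries. Of the 13 such genes 8 were analysed here, 6 of complex I with mt-Cytb of complex III and mt-Co1 of complex IV, and none of complex V. Of these 8, 7 fell, 0 rose (0 also at an unadjusted p under 0.05 and with DESeq2) and mt-Co1 (-0.45, adjusted p = 0.096) did not pass, with a median of -1.60. mt-Nd2, a proton-pumping subunit of complex I, had 183, 127, 177 and 204 CPM in CD40 day 2, against 849 and 728 CPM in Kupffer day 0 (-2.18 ± 0.19, adjusted p = 1.2e-05). mt-Nd4 was at -1.66 and mt-Nd1 at -1.54. Within each library, the counts of nuclear members stood at 10.6, 12.7, 9.23 and 8.36 times those of these 8 genes in CD40 day 2, against 2.09 and 2.18 times in Kupffer day 0. For complex III the ratio of nuclear counts to mt-Cytb was 2.01, 2.40, 1.83 and 1.66 in CD40 day 2, against 0.464 and 0.462 in Kupffer day 0. Every CD40 library lay above both Kupffer libraries in both ratios. How well oligo-dT priming captures mitochondrial transcripts, which carry short tails, was not tested.

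Beyond the subunits, the assembly factors moved less evenly. Their counts stand beside 23.2% called higher and 30.2% called lower over all genes tested. For complex IV, 8 of 21 tested factors were higher and 0 lower, or 1 lower at an unadjusted p under 0.05, without library b or d of CD40 day 2, with column totals or with the stricter count filter. Coa5 had a log2 fold change of 2.22 ± 0.26 (SE), Cmc1 one of 2.03 ± 0.24 and Cox17, the copper chaperone, one of 1.72 ± 0.21. Cox17 had 679, 703, 546 and 491 CPM in CD40 day 2, against 199 and 166 CPM in Kupffer day 0 (adjusted p = 0.00010, edgeR's quasi-likelihood test). These 3 passed in every setting. For complex I, 4 of 14 were higher, among them Timmdc1 (1.72), Ndufaf3 (0.85) and Lyrm2 (0.71), and Ndufaf2 was lower (-0.84). Without library a of Kupffer day 0, 1 was higher, without library b 2 were, and with column totals or DESeq2 2 were. The Ndufaf2 call was lost without either Kupffer library, without library a or c of CD40 day 2 and with DESeq2.

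For complex II, Sdhaf4 (0.71) and Sdhaf2 (0.57), which help to mature the flavin subunit, were higher. The Sdhaf2 call held in 5 of the 13 settings. Among others, it was lost with no count filter, the stricter filter or DESeq2 and without library a or c of CD40 day 2. Sdhaf3 (-1.37), which acts in the maturation of Sdhb, was lower. Without library b of Kupffer day 0, or with column totals, 0 of the 4 complex II factors was higher. Sdhaf3 lost its call without library a of Kupffer day 0 and with DESeq2. For complex III, Uqcc2 was higher (0.67) and Ttc19 lower (-0.83), Uqcc3 (0.43) did not pass, and neither call held without library a or without library b of Kupffer day 0. Uqcc2 was also lost with column totals and the stricter filter, and Ttc19 without library a or c of CD40 day 2 and with DESeq2. For complex V, Usmg5, a small subunit-like protein, was higher (1.15 ± 0.18, adjusted p = 0.00044), and Tmem70 (-0.36) and Atpaf2 (0.32) did not pass. Ndufab1, the acyl carrier protein that is also a complex I subunit but falls outside the symbol rule, was higher (0.62), but not without either Kupffer library, with column totals or with the stricter filter.

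Among carriers and shuttles 5 of 11 were higher and 1 lower, beside 23.2% higher and 30.2% lower over all genes tested. Gpd2, the mitochondrial glycerol phosphate dehydrogenase that feeds electrons to ubiquinone, had 56.4, 41.0, 54.2 and 45.9 CPM in CD40 day 2, against 12.1 and 9.75 CPM in Kupffer day 0 (2.14 ± 0.27, adjusted p = 0.00013). Slc25a5, an ADP/ATP carrier, was higher (1.03), while its relative Slc25a4 was called lower (-0.64, adjusted p = 0.049), a call that held in 6 of the 13 settings. It was lost without library a, c or d of CD40 day 2, without library a of Kupffer day 0, with RLE or upper-quartile scaling and with DESeq2. Etfa, of the electron transfer flavoprotein, was higher (0.93). The higher count was 2 without library a of Kupffer day 0 and 3 without library b.

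Known regulators of mitochondrial gene expression were mostly below the threshold, with 2 of 13 higher and 1 lower. Over all genes tested 23.2% were higher and 30.2% lower. Hif1a, the oxygen-regulated factor, had 152, 175, 179 and 124 CPM in CD40 day 2, against 56.8 and 61.3 CPM in Kupffer day 0 (1.42 ± 0.21, adjusted p = 0.00039). Ppargc1b, a coactivator of mitochondrial genes, was higher at low counts (1.79 ± 0.41, adjusted p = 0.0046), and not without library a of Kupffer day 0. Nrf1, whose motif was searched above, was called lower (-0.54 ± 0.20, adjusted p = 0.039), and the call held in 4 of the 13 settings. It was lost without either Kupffer library, without library a, c or d of CD40 day 2, with RLE or upper-quartile scaling, with no count filter and with DESeq2. Ppargc1a was listed at 0 in all 6 libraries.

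Genes of other mitochondrial compartments gave 7 of 21 higher and 2 lower, beside 23.2% higher and 30.2% lower over all genes tested. Phb2 (1.04), citrate synthase Cs (1.03) and the outer membrane channel Vdac2 (0.92) were higher. Phb (-1.31), the partner of Phb2, and the fusion factor Mfn1 (-1.59 ± 0.49, SE) were lower. Mfn1 stood at low counts, with 5, 1, 5 and 7 in CD40 day 2 and 20 and 5 in Kupffer day 0. The number lower was 1 with the stricter count filter and without library c or d of CD40 day 2. Without library b of Kupffer day 0, with column totals or with the stricter count filter, 4 were higher, and DESeq2 did not call Mfn1. The members were also set beside ribosomal proteins, which are short and abundant as well. Of the cytosolic ribosomal proteins 46 of 64 were higher and 1 lower (median 0.78), and of the mitochondrial ones 38 of 67 were higher and 2 lower (median 0.68), or 21 higher without library a of Kupffer day 0. No test set these families against the members.

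Short genes as a whole were higher in CD40 day 2. Among tested genes other than members, the median log2 fold change was 0.68 for coding lengths up to 300 nt (150 genes), 0.37 up to 600 nt (1014 genes), 0.02 up to 1200 nt (2610 genes), -0.24 up to 2400 nt (3070 genes) and -0.66 beyond (1809 genes). The members, with a median coding length of 426 nt, had medians of 0.94 (18 genes), 0.71 (34), 0.75 (11) and 0.61 (7) in the first 4 of these classes, and none was longer than 2181 nt. The member median was above that of the other genes in each class, by less in the shortest class than in the longer ones. From the shortest class to the longest, 52, 37.9, 25.4, 17.9 and 10.7% of the other genes were called higher. In the first 4 classes 16 of 18, 21 of 34, 10 of 11 and 4 of 7 members were. The part of length in the result was not otherwise tested.

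**Figure D5:**
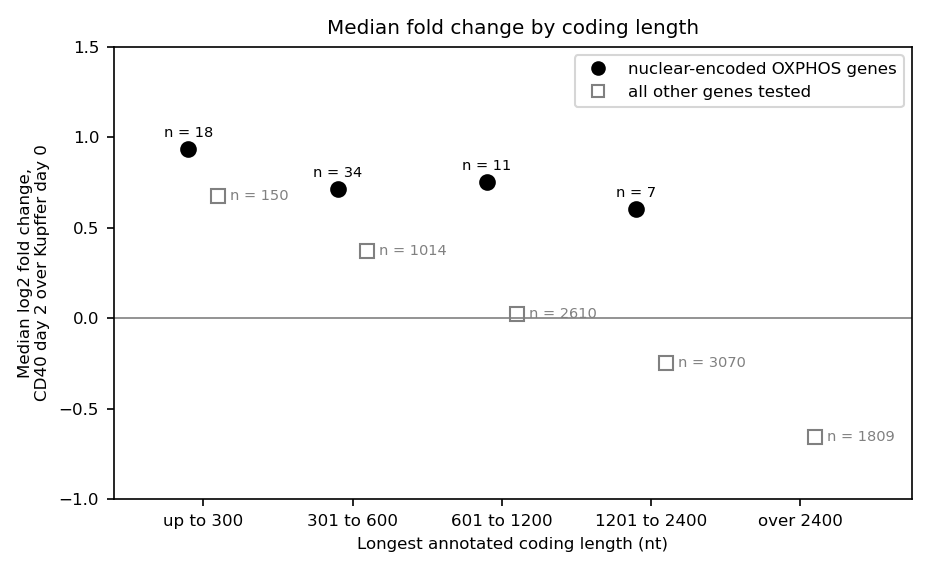
Median log2 fold change, CD40 day 2 over Kupffer day 0, by class of longest annotated coding length, for the members (filled circles) and for all other genes tested (open squares), with the number of genes at each point. The other genes run from 0.68 in the shortest class to -0.66 in the longest, and the members stay between 0.61 and 0.94.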

How the data were processed

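Per the labels' protocols, barcoded cDNA carrying unique molecular identifiers was made with oligo-dT primers, pooled, amplified and sequenced from the 3′ end. The deposited table holds raw counts per gene symbol, which the authors made on GRCm38.p6, per the submitters' processing notes, which also name DESeq2 1.22.2; the aligner, the counter, strand use and whether reads or identifiers were counted are not given in the sources. Column headers give the group but no replicate number, and the other 6 columns were not used. In the 6 columns used, 17 symbols had been turned into dates (0.0846 to 0.151% of counts).

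The counts were fitted with edgeR 4.0.16 in R 4.3.3 (quasi-likelihood test, TMM scaling, default filterByExpr, no block, two-sided, Benjamini-Hochberg over 9852 genes, threshold 0.05), with a biological coefficient of variation of 20.4%. The fit was tested on simulated data. Levels are CPM on TMM-adjusted totals. SE is the log2 fold change over the square root of F. The chi-square per degree of freedom between libraries of a group was 3.17 to 11.7, and all were kept as separate libraries.

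Coordinates, overlaps, coding lengths and shared 3′ words (50 bases, last 500 bases of each transcript) come from GENCODE M21 (GRCm38). Coding length stood in for the planned protein length; 88.5% of tested genes had one. In each complex the 4 called members with the largest changes, no overlap and at least 20 CPM are given per library, with all of complex II, the paralogs and the members that did not pass, 1 of which is counted but not reported here; of other lists, the 3 genes with the lowest adjusted p and any called against the majority. Ndufs7, Ndufv1, Ndufa4 and the called members given by fold change alone were added after their values were seen. Members and lists were chosen with earlier results of these data known, and the subunit classes after the values were seen. Alternatives were RLE, upper-quartile and total scaling, 2 other count filters, DESeq2 1.42.0, other denominators for shares, and leaving out each library. Library depths, 688498 to 2271228 counts, limit the precision of low genes.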

Additional observations from a re-analysis of the deposited data

Results flagged for a closer look

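Among the 73 tested members, 1 had a CD40 day 2 library far from the other three. Ndufv3 had 657 CPM in library a and 495 to 521 CPM in libraries b, c and d, so that the gap was 0.843 of the range, above the critical value of Dixon's test for 4 samples. Chance marks about 1 in 20 such groups. All 4 libraries lay above the Kupffer day 0 libraries, and the call held in all 13 settings.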

How the results depend on the processing

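The number of members called higher was 46 to 57 under the 6 other settings of scaling, filter or tool and 37 to 57 with 1 library left out, and 0 were lower in each; 35 were called in all 13 settings. The median of 0.751 became 0.832 with upper-quartile scaling, 0.586 with column totals and 0.627 with the stricter filter (10 counts in 4 libraries), and was 0.725 to 0.806 with 1 library left out. Set against the median of all genes, which was -0.104 and became -0.271 with column totals, it was 0.855, 0.857 with column totals and 0.677 with the stricter filter. With TMM-adjusted totals as denominator, the ratio of summed shares was 1.61, 2.18, 1.73, 1.92 and 1.85 for complexes I to V and 1.76 for all members.

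Signs that turned belonged to members that did not pass. With column totals these were Ndufa4 (-0.10), Ndufa5 (-0.0656), Ndufb10 (-0.0151), Ndufa8 (-0.0955), Ndufa12 (-0.16) and Ndufv1 (-0.0891), and with the stricter filter Ndufa4 (-0.0662), Ndufa5 (-0.0335), Ndufa8 (-0.0590), Ndufa12 (-0.123) and Ndufv1 (-0.0551). With 1 library left out, Ndufa4 ranged from -0.00886 to 0.12, Ndufa12 from -0.10 to 0.11 and Sdha from -0.20 to 0.057. Ndufs1 and Sdhc passed in 5 of 13 settings. The cause was not tested. No paired analysis was possible because the column headers carry no replicate numbers. With 2 Kupffer libraries, leaving 1 out assumes that the lone one varies like the CD40 libraries.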
